A study of Mus musculus with 4 samples.

Results

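The 36 genes described here encode proteins of skeletal muscle, and they were followed in RNA of mouse dorsal skin. A gene was included if the symbol of one of its array probes, in the platform's annotation, equalled one of 36 listed names. Of the 36 genes, 34 had at least 1 such probe, and together they had 73 of the 45281 probes. No probe carried the symbol Myh2, a fast myosin heavy chain, or Smpx, a small muscle protein. For 32 genes a probe was above the detection limit on at least 1 array, out of 12729 such genes in all, and 29 of them were above it on all 4 arrays. By fibre type, 14 of the 36 are fast fibre genes, 7 are slow fibre genes, and 15 are common to both or were put with neither.

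Skeletal muscle fibres contract when myosin of the thick filaments pulls on actin of the thin filaments, within sarcomeres anchored at Z-discs. Calcium released from the sarcoplasmic reticulum binds troponin on the thin filament and starts the contraction. Fast and slow fibres build the same machine from different paralogues of myosin, troponin and myosin-binding proteins. Mouse back skin carries a thin sheet of such muscle, the panniculus carnosus, below the fat layer.

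The mice were C57BL/6J, aged 8 to 12 weeks, and all had received mini-circle DNA, a small circular expression construct without a plasmid backbone, that carried GFP or IL-17A. Either construct was given alone or together with IMQ, the agent as the labels name it, commonly short for imiquimod, which makes 4 groups. Each group was 1 Illumina array hybridised with RNA from a pool of 6 mice. The labels gave no promoter, dose, interval or sex, named the tissue as dorsal skin without saying which layers were taken, and had no group without mini-circle DNA. Values of the 4 groups are given below in the order GFP, IL-17A, GFP with IMQ, IL-17A with IMQ.

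With 1 array per group, no difference could be set against a spread between replicates, and none was tested. Differences between 2 arrays are therefore given as log2 values beside those of all 12729 genes measured. The array codes in the labels differed in their last letter alone, so the place on the chip and the group cannot be told apart. The median deposited signal per array was between 7.85 and 8.80, and the detection limit between 11.6 and 12.7. On each array 30 or 31 of the muscle genes were above the limit. Levels below are normalized signals, on a scale where the median probe stood at 72.6 and the limit at 76.2 to 76.8. A gene is represented by its brightest probe on average, and levels are compared between arrays for the same probe, never between genes.

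The skin samples held RNA of skeletal muscle on every array. The summed signal of the 73 muscle probes made up 2.50%, 2.46%, 2.43% and 2.25% of the summed signal of all probes. Neither the labels nor these values say which muscle the RNA came from, and in a bulk sample fewer muscle fibres and less RNA per fibre cannot be told apart. All 13 fast fibre genes that had a probe were above the limit on all 4 arrays. Of the 7 slow fibre genes, Mybpc1, Myl2 and Tnnt1 were above it on all 4 arrays, Tnnc1 on 3, Myl3 on 2 and Tnni1 on 1. Myh7, the slow myosin heavy chain, was not above the limit on any array with any of its 3 probes, whose deposited signals lay between -9.82 and 0.90. The single probe of Neb, for nebulin of the thin filament, was not above it either, with deposited signals from -5.86 to 1.01.

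Of 9 genes listed as heart markers, 4 were above the limit on at least 1 array. Myh6, Myl7, Nppa and Mybpc3 were above the limit on no array, and Tnnt2 had no probe under that symbol. Tnni3, the cardiac troponin I, was above it on 1 array, and the atrial light chain Myl4 had signals of 206, 178, 179 and 174. Nppb, a natriuretic peptide gene, had signals of 75.2 and 65.7 on the GFP arrays without and with IMQ, not above the limit, and of 224 and 344 on the IL-17A arrays. Sln is listed for heart too and is described with the calcium genes of muscle.

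**Figure D1:**
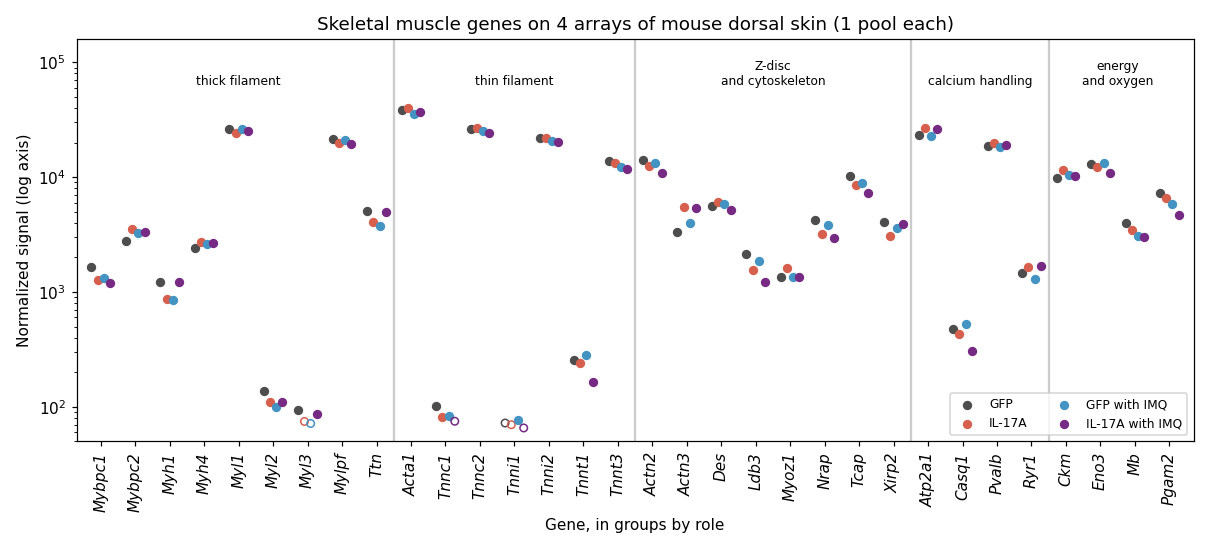
Normalized signal (log axis) of the 32 measured muscle genes on the 4 arrays, grouped by role. Each point is 1 array, and an open point is a signal not above the detection limit. Most genes lie within a narrow band over the arrays: the median range over the 4 arrays was 0.38 on the log2 scale.

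By their brightest probes, 7 of 9 thick filament genes were lower on the IL-17A array than on the GFP array without IMQ. The median log2 difference of the 9 was -0.32, or -0.28 with Myl3 held at its bound, where 47.3% of all genes were lower. For Myh1, Myl1, Mylpf and Ttn, 1 other probe above the limit on all arrays was higher, by 0.14, 0.26, 0.10 and 0.06. Further probes of Myl1 and Ttn were lower. Under IMQ 6 of the 9 were higher with IL-17A, with a median of 0.03. Myh4, the heavy chain of the fastest fibres, had signals of 2409, 2733, 2612 and 2657. Myh1, the heavy chain of fast IIx fibres, had 1222, 876, 856 and 1210. Ttn, the giant spring titin, had 5075, 4038, 3733 and 5007. Myh1 and Ttn thus shared a pattern, high on the GFP array and on the IL-17A array with IMQ and low on the other two, while Myh4 was lowest on the GFP array and within 0.18 of that level on each of the others. The fast light chain Myl1 had 26455, 24336, 26141 and 25399. The fast regulatory light chain Mylpf had 21669, 19968, 20871 and 19474. By their brightest probes these light chains stayed within a narrow range on all arrays, with no log2 difference beyond -0.12 in the 4 comparisons. The dimmer probes of Myl1 varied more. In the 4 comparisons 1 of them gave 0.26, 0.27, -0.365 and -0.36, and another gave -0.18, -0.32, -0.33 and -0.46. Mybpc2, the fast myosin-binding protein, had 2782, 3526, 3239 and 3306, lowest on the GFP array. Its slow paralogue Mybpc1 had 1663, 1273, 1336 and 1199, highest on the GFP array. The slow light chains were dim, at 138, 110, 98.7 and 109 for Myl2 and at 93.2, 74.5, 71.5 and 86.5 for Myl3, and both were highest on the GFP array. The middle pair of Myl3 values was not above the limit, so GFP was at least 1.215-fold higher than IL-17A and at least 1.22-fold higher than GFP with IMQ.

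Of the 7 thin filament genes measured, the slow troponins Tnnt1 and Tnnc1 had the widest ranges over the arrays, 0.79 and 0.43 on the log2 scale, and those of the others were at most 0.23. Acta1, skeletal alpha-actin, had signals of 38182, 40075, 35500 and 37193. The fast troponins C, I and T are Tnnc2, Tnni2 and Tnnt3. Tnnc2 had 26141, 27004, 25399 and 24013, Tnni2 had 21780, 21905, 20448 and 20259, and Tnnt3 had 13720, 13344, 12137 and 11787. For all 4 genes both arrays with IMQ lay below both arrays without it. On the IL-17A array without IMQ the deposited Acta1 signal, 40234.1, was close to the highest of that array, 40538.4. Whether signals this bright still rise in step with RNA was not tested. Tnnt1, the slow troponin T, had 257, 242, 283 and 164, so the IL-17A array with IMQ stood below the other 3. Tnnc1, the slow troponin C, had 101, 82.1, 82.6 and 74.8, the last not above the limit. Tnni1, the slow troponin I, had 72.2, 69.8, 76.7 and 65.4 and was above the limit with GFP and IMQ only, so its differences carry little information.

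Among Z-disc and cytoskeletal genes, by their brightest probes, Actn3 went one way and Ldb3, Nrap, Tcap and Actn2 the other. Actn3, the alpha-actinin of fast fibres, had signals of 3319, 5541, 3963 and 5377, and both IL-17A arrays were above both GFP arrays. Actn2, the alpha-actinin of all fibres, had 14017, 12388, 13383 and 10780. Ldb3, which binds alpha-actinin at the Z-disc, had 2131, 1552, 1848 and 1225. By these probes, both IL-17A arrays were below both GFP arrays for Actn2 and Ldb3, the opposite of Actn3. The dimmest Actn3 probe had 732, 1086, 961 and 920, so under IMQ it was lower with IL-17A. The dimmest Ldb3 probe above the limit on all arrays had 111, 87.5, 106 and 135, highest with IL-17A and IMQ. Nrap, a protein of myofibril assembly and of the junction with the tendon, had 4213, 3213, 3816 and 2940. Tcap, which caps titin at the Z-disc, had 10213, 8562, 8929 and 7215. For Nrap and Tcap, too, both IL-17A arrays were below both GFP arrays. Xirp2, an actin-binding repeat protein, had 4055, 3083, 3581 and 3901, and its IL-17A array without IMQ was the lowest. The intermediate filament gene Des had 5558, 6091, 5780 and 5185. Myoz1, the fast fibre calsarcin, had 1361, 1626, 1337 and 1341 and was highest on the IL-17A array without IMQ.

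The calcium handling genes included 1 with a clear low value. Casq1, calsequestrin of the fast fibre sarcoplasmic reticulum, had signals of 477, 428, 521 and 306, and was lowest with IL-17A and IMQ. Atp2a1, the fast calcium pump that refills the reticulum, had 23180, 26598, 22738 and 26141. Ryr1, the calcium release channel, had 1461, 1649, 1285 and 1685. Both were higher on the 2 IL-17A arrays than on the 2 GFP arrays. Pvalb, parvalbumin, a soluble calcium buffer of fast fibres, had 18791, 19784, 18418 and 19154, with the same order of the groups as Atp2a1 at a small size.

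The genes of energy supply and oxygen storage were lowest on an array with IMQ, except Ckm. Ckm, muscle creatine kinase, had signals of 9790, 11457, 10472 and 10213. Eno3, muscle enolase, had 13017, 12192, 13224 and 10820. Pgam2, muscle phosphoglycerate mutase, had 7341, 6605, 5847 and 4714. For Pgam2 each treatment alone was below GFP alone, and the array with both was the lowest. Mb, myoglobin, the oxygen store of oxidative fibres, had 4020, 3473, 3088 and 3018, and both IMQ arrays were below both arrays without IMQ.

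Over the 32 genes, GFP was the highest array for 16 and IL-17A for 11, while GFP with IMQ was the highest for 4 and IL-17A with IMQ for 1. The lowest array was IL-17A with IMQ for 17 genes, GFP with IMQ for 9, GFP for 4 and IL-17A for 2. These counts include signals under the limit for Tnnc1, Myl3 and Tnni1. The same counts were not made over all genes, so they have no background to be set against. The range over the 4 arrays had a median of 0.38 among the muscle genes, from 0.10 for Pvalb to 0.80 for Ldb3, against a median of 0.29 among all genes. Among genes with a mean log2 level of at least 10, the medians were closer, 0.32 for 26 muscle genes and 0.29 for all 1890.

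IL-17A compared with GFP without IMQ gave 1 muscle gene at least 1.5-fold higher, Actn3 at 1.67-fold, and none at least 1.5-fold lower. The same bar was passed upward by 2.13% of all genes and downward by 3.19%, so 1 of 32 higher was near the background. A lower bar was set at the brighter array at least 25% above the dimmer one. By it Actn3 and Mybpc2 were higher, where 9.33% of all genes were. Ldb3, Mybpc1, Myh1, Myl2, Myl3, Nrap, Ttn and Xirp2 were lower, 8 of 32 or 25%, where 9.51% of all genes were. The bound of Myl3 does not reach the bar, and with signals under the limit held at their bounds 7 of 32 genes, or 21.9%, were lower, against 8.77% of all genes. Of these 7, 4 were thick filament genes. The median difference of the muscle genes was -0.11, with 62.5% of them below 0, against a median of 0.015 and 47.3% below 0 for all genes.

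IMQ compared with no IMQ in GFP skin left no muscle gene 1.5-fold apart, where 1.55% of all genes were higher and 2.06% lower by that much. At the 25% bar no muscle gene was higher, against 7.52% of all genes. Mb, Myh1, Myl2, Myl3, Pgam2 and Ttn were lower by it, 6 of 32 or 18.8%, against 8.65%. Myl3 again passed by its measured signal and not by its bound, which leaves 5 of 32, or 15.6%, against 7.87% of all genes. The log2 differences of these 5 were -0.38 for Mb, -0.51 for Myh1, -0.48 for Myl2, -0.33 for Pgam2 and -0.44 for Ttn. The median of the muscle genes was -0.08, and 71.9% were below 0, against 49.4% of all genes. This comparison shares the GFP array with the preceding one, so the values of that array enter both.

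IL-17A compared with GFP under IMQ gave 3 muscle genes at least 1.5-fold lower, 9.38% of the 32 where 1.87% of all genes were, and none at least 1.5-fold higher, where 2.52% were. Among genes with a mean log2 level of at least 10, 1 of 26 muscle genes, or 3.85%, was at least 1.5-fold lower, against 3.76% of all such genes, so at that brightness the share was near the background. Tnnt1 was 1.73-fold lower, Casq1 1.70-fold and Ldb3 1.51-fold. Tnnt1 and Casq1 were each measured by 1 probe. Ldb3 had 4 probes above the limit on all arrays, with log2 differences from -0.59 to 0.34, and its difference was -0.26 as the mean over probes and -0.51 with arrays scaled to a common median, both short of 1.5-fold. At the 25% bar, Nrap joined the 3 lower genes, 12.5% against 8.74% of all genes. Actn3, Myh1, Ryr1 and Ttn were higher by it, 12.5% against 9.29%. The median was -0.04, and 59.4% of the muscle genes were below 0, against 49.2% of all genes.

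IMQ compared with no IMQ in IL-17A skin again left no muscle gene 1.5-fold apart, where 0.966% of all genes were higher and 0.212% lower. At the 25% bar Casq1, Ldb3, Pgam2 and Tnnt1 were lower, 12.5% against 3.63% of all genes, and Myh1 and Xirp2 were higher, 6.25% against 4.44%. In this comparison 26 of 32 muscle genes, or 81.2%, were below 0, against 50.9% of all genes. The shift was small, with a median of -0.11 and quartiles of -0.20 and -0.03, where those of all genes were -0.12 and 0.11. With the main processing, no muscle gene reached 2-fold in any of the 4 comparisons. Among all genes, 2-fold was reached upward by 0.841%, 0.416%, 1.06% and 0.165% in the order of the comparisons given here, and downward by 0.99%, 0.283%, 0.283% and 0.0786%. Without background correction Tnnt1 passed 2-fold, with a log2 difference of -1.14 for IL-17A under IMQ. Genes past 2-fold were not counted in that setting.

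**Figure D2:**
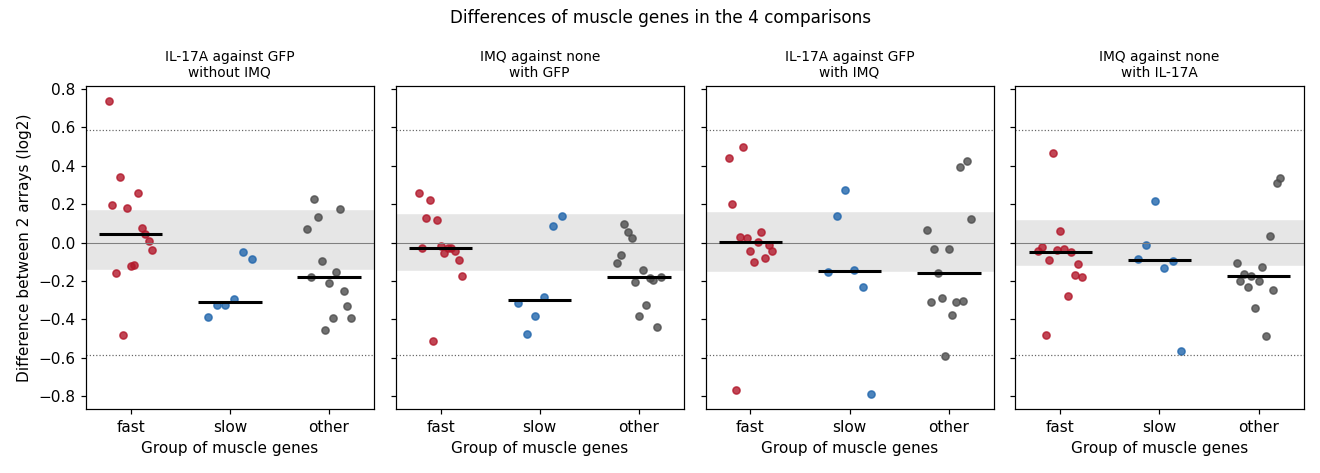
Log2 difference of each measured muscle gene in the 4 comparisons, for 13 fast, 6 slow and 13 other genes. Each point is a gene, the black line is the group's median, the grey band spans the quartiles of all 12729 genes, and the dotted lines mark 1.5-fold. Few points lie beyond the dotted lines, and the slow genes lie mostly below 0 in the first panel.

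Fast and slow fibre genes differed most in the comparison of IL-17A with GFP without IMQ. There the 13 fast genes had a median log2 difference of 0.05 and the 6 slow genes one of -0.31, a gap of 0.36, and all 6 slow genes were below 0, Tnni1 with both arrays under the limit, as were 5 of the 13 fast genes. For IMQ in GFP skin the medians were -0.03 and -0.30, a gap of 0.27. Both of these comparisons use the same GFP array, so their gaps are not independent. That array was the highest for the slow genes Mybpc1, Myl2, Myl3 and Tnnc1, but not for Tnni1 and Tnnt1. The gap was 0.15 for IL-17A under IMQ and 0.04 for IMQ in IL-17A skin. With the dim genes set at their bounds, the slow medians became -0.30, -0.28, -0.055 and -0.09 in the 4 comparisons. Of the 6 slow genes, 3 were within the reach of the detection limit on some array, while no fast gene was, and the offset used here reduces dim genes' differences more than bright genes' differences. Whether fast and slow genes of the same brightness would differ was not tested. The sign of the fast median was not the same in the authors' normalized values in the comparisons near 0. For IMQ in GFP skin it was -0.03 here, 0.06 there and -0.135 with median scaling. For IL-17A under IMQ it was 0.005 here, -0.05 there and -0.004 with median scaling.

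Without IMQ the fast gene of each of these pairs lay above its slow paralogue in the IL-17A difference. Between GFP and IL-17A without IMQ, the fast Mybpc2 differed by 0.34 and the slow Mybpc1 by -0.39. Both Mybpc1 probes above the limit on all arrays gave -0.39. The fast troponin C gene Tnnc2 differed by 0.05 and the slow Tnnc1 by -0.30, and the fast Mylpf by -0.12 against the slow Myl2 at -0.325. In the other troponin pairs the genes lay close together. Tnnt3 differed by -0.04 and Tnnt1 by -0.09, and Tnni2 by 0.01 and Tnni1, under the limit on both arrays, by -0.05. Under IMQ the pairs had no common order. The troponin T pair differed by -0.04 for the fast Tnnt3 and -0.79 for the slow Tnnt1, and the myosin-binding pair by 0.03 for Mybpc2 and -0.16 for Mybpc1. The light chains went the other way, with -0.10 for Mylpf and 0.14 for Myl2, and with -0.04 for Myl1 and a value above 0 for Myl3, where IL-17A was at least 1.13-fold higher.

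Where a gene had several probes, they served as a check within the array. For 12 genes at least 2 probes were above the limit on all arrays, and all probes of a gene had the same sign in 8, 10, 8 and 7 of the 12 in the 4 comparisons. The spread between probes of a gene had a median of 0.20, 0.165, 0.17 and 0.195 on the log2 scale. The 3 probes of Actn3 differed by 0.57 to 0.76 between IL-17A and GFP without IMQ, and by -0.06 to 0.44 under IMQ. The 2 probes of Nrap, of Tcap and of Actn2 were lower in all 4 comparisons. The 3 probes of Myl1 ranged from -0.32 to 0.27 for IMQ in GFP skin, so its small difference there rests on the brightest probe. For Ldb3 the dimmest of 4 probes went against the others on the IL-17A array with IMQ.

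**Figure D3:**
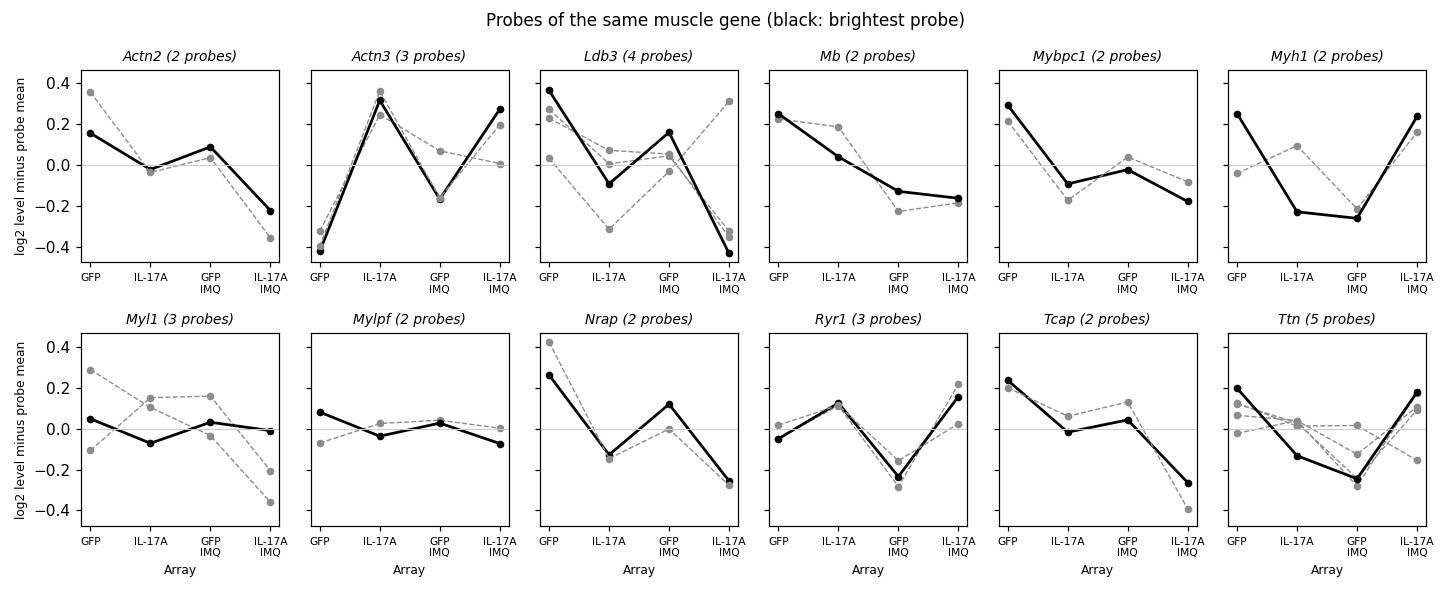
Log2 level of each probe minus its own mean over the 4 arrays, for the 12 muscle genes with at least 2 probes above the limit on all arrays. The black line is the brightest probe, which represents the gene, and grey dashed lines are the others. The 3 Actn3 probes are all higher with IL-17A than with GFP without IMQ, while the Ldb3 probes part on the last array.

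Myh1 and Ttn were the only muscle genes with an IL-17A difference of opposite sign without and with IMQ and past the 25% bar in both cases. Myh1 differed by -0.48 without IMQ and by 0.50 with it, and Ttn by -0.33 and 0.42. They were 2 of the 29 genes above the limit on all arrays, or 6.90%, where 79 of 10366 genes, or 0.762%, met the same description. The second, dimmer probe of Myh1 did not follow the first: it differed by 0.14 without IMQ and by 0.38 with it. The 5 Ttn probes ranged from -0.33 to 0.06 without IMQ and from -0.17 to 0.46 with it. As the mean over probes, the differences became -0.17 without IMQ for Myh1, and -0.11 and 0.22 for Ttn, so that neither gene was then past the 25% bar without IMQ.

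**Figure D4:**
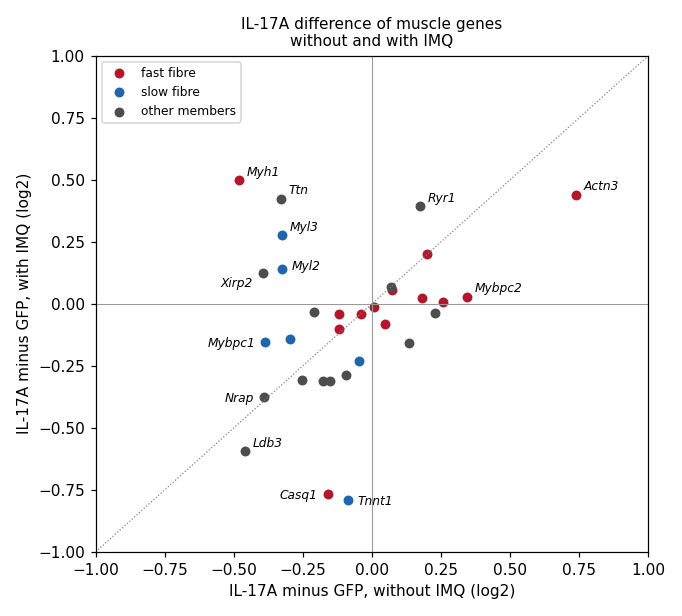
IL-17A minus GFP on the log2 scale, without IMQ (horizontal) and with IMQ (vertical), for the 32 measured muscle genes. Each point is a gene, coloured by fibre type, genes past the 25% bar on either axis are named, and the dotted line marks equal differences. Myh1 and Ttn lie in the upper left, Actn3 far right, and Casq1 and Tnnt1 at the bottom near 0 on the horizontal axis.

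The promoter sequences of Myh1, its chromosomal neighbour Myh4 and Ttn are shown because Myh1 and Ttn shared this pattern and Myh4 did not. They are the 220 bases before each gene's start, from RefSeq on build GRCm38.p6: chr11:67199882-67200101 on the plus strand for Myh1, chr11:67237592-67237811 on the plus strand for Myh4 and chr2:76982548-76982767 on the minus strand for Ttn. Capitals mark matches, on either strand, to CAGCTG (an E-box form used by myogenic factors), CATTCC (the MCAT motif of TEAD factors), TATAAA (the TATA box), the CArG box of serum response factor and the MEF2 site.
Myh1: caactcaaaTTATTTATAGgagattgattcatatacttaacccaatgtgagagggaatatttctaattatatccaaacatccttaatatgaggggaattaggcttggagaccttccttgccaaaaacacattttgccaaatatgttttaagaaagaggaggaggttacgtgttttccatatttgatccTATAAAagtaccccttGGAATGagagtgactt
Myh4: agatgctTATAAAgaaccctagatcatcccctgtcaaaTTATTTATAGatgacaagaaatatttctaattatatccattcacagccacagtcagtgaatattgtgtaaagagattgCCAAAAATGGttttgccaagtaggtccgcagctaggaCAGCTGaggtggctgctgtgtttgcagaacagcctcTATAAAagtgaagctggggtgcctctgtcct
Ttn: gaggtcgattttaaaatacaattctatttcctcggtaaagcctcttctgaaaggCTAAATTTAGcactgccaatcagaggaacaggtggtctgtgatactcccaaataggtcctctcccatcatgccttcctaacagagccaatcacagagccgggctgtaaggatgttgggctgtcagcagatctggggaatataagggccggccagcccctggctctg

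All 3 stretches held a MEF2 site. In Myh1 it lay at -211 to -202 from the start and in Myh4 at -182 to -173, and in both it overlapped a TATAAA match on the opposite strand. Both myosin genes also had TATAAA close to the start, at -32 to -27 in Myh1 and at -31 to -26 in Myh4. Myh1 had an MCAT match at -16 to -11, while Myh4 had a CArG box at -104 to -95 and CAGCTG at -67 to -62. Myh4 also had an MCAT match at -231 to -226, just before the stretch shown. Ttn had its MEF2 site at -166 to -157 and none of the other capitalised motifs in this stretch.

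Over the 250 bases before the start, 37 promoters of 30 muscle genes were found in the RefSeq table and set beside all 32841 promoters in it. Some promoters of the same gene overlap, so the same site could be counted repeatedly. This was so for a CAGCTG site of Mb and of Tnni1 and for a CArG box of Ldb3. CAGCTG was in 43.2% of the muscle promoters and 13.0% of all, and the general E-box CANNTG, which includes CAGCTG, in 81.1% and 66.2%. The MEF2 site was in 16.2% and 2.92%, and the CArG box in 13.5% and 1.47%. MCAT was in 24.3% and 12.6%, and TATAAA in 16.2% and 12.4%. These are matches of letters, and the arrays measured no binding to them.

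Other genes of muscle sarcomeres were read beside the 36. Of 24 listed, 19 were measured, with medians of -0.18, -0.13, 0.015 and -0.04 in the 4 comparisons. Actc1, the cardiac actin also made by immature and regenerating skeletal fibres, had signals of 96.7, 180, 145 and 222, and both IL-17A arrays were above their GFP counterparts. Myot, myotilin of the Z-disc, had 976, 741, 903 and 500, lowest with IL-17A and IMQ, as were Ldb3 and Casq1. Flnc, muscle filamin, had 8678, 6514, 5512 and 6402, highest on the GFP array.

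Of 16 listed genes of excitation and calcium handling, 12 were measured, with medians of 0.12, 0.01, -0.10 and -0.24. Sln, sarcolipin, which restrains the calcium pump, had signals of 1554, 1116, 1578 and 771, so that under IMQ it was at least 2-fold lower with IL-17A, with a log2 difference of -1.03. Sypl2, a protein of the triad membrane, had 1066, 903, 1107 and 745. Stac3, which couples excitation to calcium release, had 280, 269, 254 and 196. All 3 had their lowest signal on the IL-17A array with IMQ, as Casq1 did.

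Of 18 listed genes of muscle energy metabolism, 16 were measured, with medians of 0.03, -0.12, -0.015 and -0.125. Slc2a4, the insulin-responsive glucose transporter, had 684, 470, 482 and 424, and was highest with GFP, while Cox7a1, a cytochrome oxidase subunit of muscle, had 2386, 2195, 2304 and 1639. Gpd1, glycerol-phosphate dehydrogenase, had 253, 261, 241 and 389 and was highest with IL-17A and IMQ. Slc2a4 and Gpd1 are made by fat cells too. Of 15 genes of the muscle membrane and the neuromuscular junction, 10 were measured, with medians of -0.03, -0.05, -0.09 and -0.185, and none was 1.5-fold apart. Among them Chrna1, an acetylcholine receptor subunit, had 133, 124, 150 and 106.

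Regulators of muscle formation were mostly below the limit. Of 13 listed, 5 were measured, and Pax7, Myod1, Myf5 and Mstn were not above the limit on any array. Myf6, the myogenic factor of mature fibres, had signals of 574, 701, 557 and 555, and Myog, myogenin, had 120, 108, 98.9 and 103. Of 15 genes linked to embryonic or wasting muscle, 14 were measured, with medians of 0.20, 0.01, 0.05 and -0.01. Ankrd1, a stress-responsive titin-binding protein, had 1425, 951, 623 and 1324, the same order of arrays as Myh1 and Ttn at a larger size. Mt2, a metallothionein made by many cell types, had 185, 398, 199 and 433, and was higher on both IL-17A arrays.

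The other tissues of the skin sample did not all move with muscle. The summed normalized signal of the 32 muscle genes was 284701, 283899, 271118 and 266018. That of 11 of 12 listed fat cell genes was 26972, 26223, 25625 and 24184, with medians of -0.07, -0.07, -0.07 and -0.09. Both sums were thus in the same order over the arrays, highest with GFP and lowest with IL-17A and IMQ. The fat cell genes did not all share these extremes. Lpl, the brightest of them, had 9593, 8486, 8499 and 8076 and did, but Adipoq had 3956, 3780, 3869 and 4035, highest with IL-17A and IMQ. The place of GFP at the top of the fat sum rested on Lpl. Without Lpl the fat sum was highest on the IL-17A array without IMQ, though still lowest with IL-17A and IMQ. The part of tissue composition in the muscle differences was not tested. Smooth muscle genes, 9 of 10 listed, had sums of 11266, 10883, 11637 and 11478 and medians of -0.02, 0.12, 0.05 and 0.07, with Cnn1 not above the limit. Keratinocyte genes, 9 of 9, had medians of -0.01, 0.11, -0.06 and -0.005. Fibroblast genes, 9 of 9, had -0.74, -0.635, -0.08 and 0.17, and macrophage genes, 7 of 8, had -1.38, -0.67, -0.71 and -0.09.

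**Figure D5:**
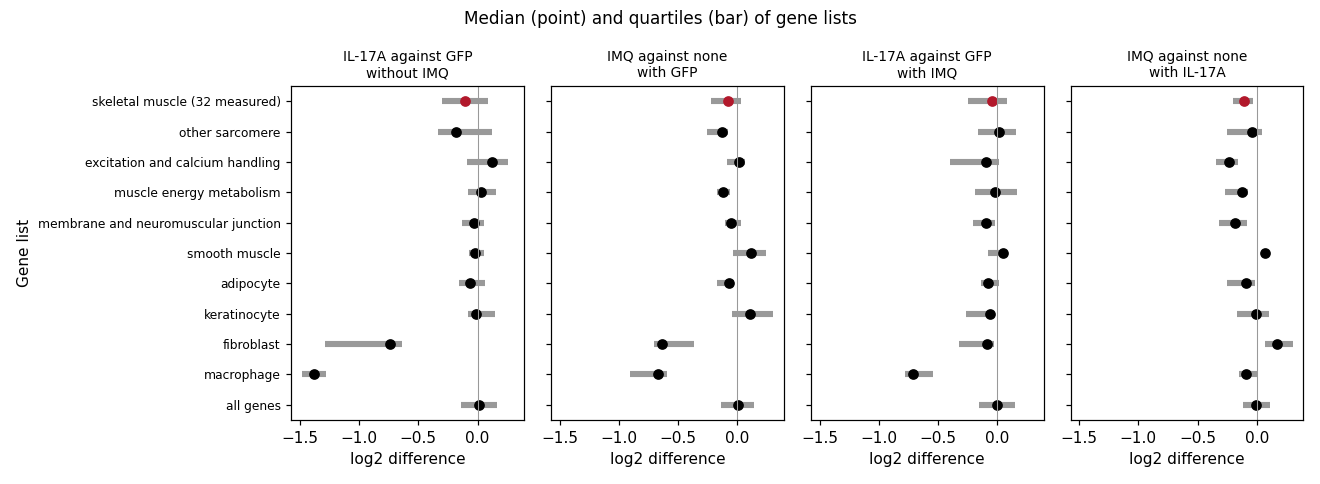
Median log2 difference (point) and quartiles (bar) of the muscle genes, other muscle lists, lists of other skin cell types and all genes in the 4 comparisons. The 32 muscle genes, in red, have medians from -0.11 to -0.04. The fibroblast and macrophage lists lie far below 0 in the first 2 panels, and the macrophage list does so in the third panel too, at -0.71.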

How the data were processed

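Per the labels' protocols, total RNA from a QIAGEN RNeasy mini kit was labelled as biotinylated cRNA for Illumina arrays. The authors deposited linear intensities of 45281 probes per array, without detection p-values or control probes; between 32.3% and 33.7% of them were below 0, so a background had been subtracted. The authors also deposited normalized log2 values (their method is not given in the sources used here), which ranked probes almost as the intensities did (Spearman correlation at least 0.9997 across probes of the same array). They served as an alternative.

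Intensities were corrected with normexp (offset 50), quantile normalized and put on the log2 scale in limma 3.58.1 under R 4.3.3, since the neqc step of the plan needs detection p-values or controls. Python 3.11.15, numpy 2.4.6 and pandas 2.3.3 made the counts, and the calls were tried on simulated data. There 49 of 50 probes raised 2-fold and 49 of 50 lowered 2-fold passed the 1.5-fold bar, but 6 and 5 passed the 2-fold bar. Of probes changed 1.6-fold up or down, 34 and 31 of 50 passed the 1.5-fold bar, as did 18 of 23801 unchanged probes. All changed probes were well above the limit, and no spread between pools was simulated. Noise was described by mirroring each array's values below 0, and the detection limit was set so that a share of 0.01 of it lay above. In the annotation 34885 probes had 1 symbol, 18 had several and 10378 had none, and 12729 of 19057 genes had a probe above the limit. A gene took its probe with the highest mean among those above the limit. A gene counted as 1.5-fold (or 2-fold, or 25%) apart only if the brighter array was above the limit. Where the dimmer array was below the limit, the fold is a bound, taken against the lowest signal above the limit or the dim signal itself if that was higher.

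The 36 genes and all other lists (sarcomere, calcium, energy, membrane, myogenic, embryonic and wasting muscle, heart, smooth muscle, fat, brown fat, fibroblast, keratinocyte, macrophage, nerve) were chosen with earlier results of these data known. Any of the 36 could be named; of each other list, the 3 measured genes with the largest difference, and every gene of the heart, smooth muscle and brown fat lists. Pax7, Myod1, Myf5 and Mstn, named as not above the limit, and Lpl and Adipoq, named for the fat sum, were added after their values were seen. The number of arrays limits the precision. The alternatives changed the offset, the background step, the scaling, the probe choice, the filter on dim probes, the fold and the fast and slow lists.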

Additional observations from a re-analysis of the deposited data

Results flagged for a closer look

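For Myh1 the IL-17A difference was 0.98 higher on the log2 scale with IMQ than without it, and for Ttn it was 0.75 higher. They stand out because IL-17A lay below GFP without IMQ and above it with IMQ, by at least 25% each time (brighter over dimmer). With 1 array per group the difference between these effects was not tested. The dimmer Myh1 probe did not show the opposite signs, and with all probes of a gene averaged neither gene passed that bar without IMQ.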

How the results depend on the processing

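No paired analysis was possible because each group has 1 array. The gap between fast and slow genes for IMQ in IL-17A skin, 0.04 in the text, changed sign in 2 settings: it was -0.054 with median scaling and -0.059 with the probes of each gene averaged. The filters on dim probes and the changes to the fast and slow lists moved none of the medians and gaps by more than 0.1 and no count by more than 1.5 times. An offset of 16 raised the gap between fast and slow genes for IL-17A without IMQ to 0.469, and the count of 1.5-fold genes to 2 for IMQ in GFP skin and to 1 for IMQ in IL-17A skin. Without background correction the counts were 4, 4, 6 and 4 in the order of the comparisons in the text, and the gaps 0.653, 0.636, 0.492 and 0.382. The single genes that moved by more than 0.1 under either of these settings were Casq1, Myl2, Myl3, Tnnc1, Tnni1 and Tnnt1. Median scaling gave a muscle median of -0.198 for IMQ in GFP skin, where the median of all genes became -0.075, and counts of 2 and 1 for IMQ in GFP and in IL-17A skin. The authors' normalized values gave counts of 2, 2, 5 and 1 and gaps of 0.51 and 0.50 for IL-17A without IMQ and for IMQ in GFP skin, and moved the muscle median from -0.08 to -0.012 for IMQ in GFP skin and from -0.04 to -0.13 for IL-17A with IMQ. Median scaling also moved the muscle medians of IL-17A with IMQ and of IMQ in IL-17A skin, to -0.073 and -0.198. The medians of all genes became 0.049 and -0.055 there. Averaged probes moved the muscle median of IL-17A without IMQ from -0.11 to -0.067. With the main processing, the counts at 2-fold for both IL-17A comparisons were 0, and with the brighter array at least 25% above the dimmer one the 4 counts were 10, 6, 8 and 6. Actn3 for IL-17A without IMQ ranged from 0.69 to 0.76 over these settings, Casq1 for IL-17A with IMQ from -0.92 to -0.68, and Tnnt1 there from -1.14 to -0.72. Ldb3 there ranged from -0.62 to -0.26 and was under 1.5-fold with the mean of its probes and with median scaling.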

Other observations

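Genes of brown fat were partly detected, 7 of 8 listed, and Ucp1, the uncoupling protein that defines brown fat, was not above the limit on any array. Cidea, a lipid droplet protein, had normalized signals of 1006, 1532, 1892 and 1154 in the order GFP, IL-17A, GFP with IMQ, IL-17A with IMQ. Elovl3, a fatty acid elongase also made by sebaceous glands, had 177, 349, 332 and 359, lowest on the GFP array. Cox8b and Cpt1b, made by both brown fat and muscle, had 5339, 5075, 4861 and 4262, and 736, 719, 571 and 629, both lower on the 2 arrays with IMQ. Genes of nerve and Schwann cells, 3 of 7 listed, had median log2 differences of -0.21, -0.085, -0.06 and -0.12 in the 4 comparisons.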
